A study of Mus musculus with 32 samples.

Results

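Plaque-associated microglia (PAM), the brain's resident macrophages captured next to amyloid plaques, were compared between mice of 12 mo and mice of 8 mo. The comparison used 8 samples, 4 at each age, of the 32 samples in the series, chosen by the age and the plaque position in their labels. Each PAM sample pooled cells that had been cut by laser from frozen cortex, per the labels at a distance under 75 µm from a plaque. The paper gives a slightly smaller limit, measured from the center of a plaque. The mice, on a C57BL6/J background, had the genotype CX3CR1+/gfp:APP/PS1Tg/0. Their hemizygous transgenes encode mutant APP and PS1 of familial Alzheimer's disease under the mouse prion protein promoter, which is active mainly in neurons of the brain. The reporter puts a green fluorescent protein in place of 1 copy of Cx3cr1, so the microglia of every group carried a single working copy of that receptor gene. As a background, plaque-clear microglia (PCM) from the same 8 mice, captured over 100 µm from any plaque, and microglia of CX3CR1+/gfp:APP/PS10/0 mice, which lack the transgenes and plaques (CM), were used, with 4 samples of each at either age. Other animals were sampled at 8 than at 12 mo, so age and animal set cannot be told apart.

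Microglia that meet a plaque are known to shift from a surveying, homeostatic state, kept by receptors such as P2ry12 and Cx3cr1, to a plaque-response state driven through the lipid-sensing receptor Trem2 and its adaptor Tyrobp. A further known state is led by interferon. Type I interferons bind a receptor on the cell, Jak kinases and factors such as Stat2 and Irf9 carry the signal to the nucleus, and antiviral target genes such as the Ifit family are switched on. These states served to order the genes below. Values are FPKM (fragments per length of transcript and depth of the sample), summed over the transcripts of a gene and scaled between samples, and they are always given for mice 1089, 1088, 1129 and 1190 at 8 mo and for mice 1032, 1033, 1107 and 1108 at 12 mo, in that order. A log2 fold change (log2FC) is the difference of the mean log2(FPKM + 1) at 12 mo from that at 8 mo, which understates the change of low genes.

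The samples held the RNA of microglia, together with RNA of the surrounding tissue. All 10 microglia markers were detected in every PAM sample, and their summed level was 5592, 6761, 6297 and 6674 FPKM at 8 mo and 3084, 5045, 6138 and 5471 FPKM at 12 mo, with the complement gene C1qa among the most abundant. The lowest sum was that of mouse 1032, in which each of the 10 markers had its lowest value of the 8 samples. The markers of brain macrophages outside the parenchyma were low, except for Pf4. F13a1 was listed at 0 in every sample, Mrc1, Cd163, Lyve1 and Siglec1 stayed at or under 0.759 FPKM, while Pf4 was at 13.6, 0, 7.27 and 0 FPKM at 8 mo and 0, 0, 5.43 and 2.07 FPKM at 12 mo. Of the T and B cell markers, Cd8a, Nkg7, Gzmb and Cd79a were listed at 0 and Cd3e, Cd3g and Cd4 stayed at or under 0.834 FPKM. Xist, the RNA of the inactive X chromosome of female cells, was detected in all 8 samples, at 1.85, 1.701, 2.74 and 4.04 FPKM at 8 mo and 1.21, 0.909, 1.24 and 1.54 FPKM at 12 mo. The ages did not overlap in Xist, and the sex of the mice was not tested. The monocyte receptor Ccr2 stayed at or under 0.528 FPKM.

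Markers of neighbouring cells were abundant. The 23 neuron markers, led by the synaptic gene Snap25, summed to 3594, 3123, 3714 and 3629 FPKM at 8 mo and 2165, 4413, 3993 and 4476 FPKM at 12 mo. The 13 astrocyte markers, led by Aldoc, summed to 2599.6, 2054, 2574 and 1820.1 FPKM at 8 mo and 2627, 2189, 2029 and 1698 FPKM at 12 mo, and the oligodendrocyte markers to 1519, 1835, 2014 and 1731 FPKM at 8 mo and 1852, 2157, 2133 and 1796 FPKM at 12 mo. Mouse 1032 thus had the lowest neuron sum as well as the lowest microglia sum, while its astrocyte sum was the highest. The age groups overlapped in the astrocyte and oligodendrocyte sums. No 12-mo mouse lay inside the 8-mo range of the neuron sum, with 3 above it and mouse 1032 below it, and only mouse 1107 lay inside that of the microglia sum. None of the 22 tested neuron markers reached a raw p of 0.05 (limma), and their median log2FC was 0.073. Depth, estimated from the deposited coverage, was 30.6, 23.7, 27.6 and 25.4 M reads at 8 mo and 29.9, 24.1, 27.2 and 34.4 M reads at 12 mo. In such bulk samples, fewer cells of a type and less RNA per cell cannot be told apart.

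Between 8 and 12 mo, 2 of 11989 genes fell past an adjusted p of 0.05 (limma, Benjamini-Hochberg over all genes), a share of 0.0167%, and none rose past it. At a raw p under 0.05, 345 genes were higher at 12 mo (2.88% of those tested) and 383 were lower (3.19%). The share of higher ones among them was 47.4%, or 54.1% without scaling between samples and 39.3% among genes that reached 5 FPKM, so the majority direction was not stable. The values of all 4 older mice lay above those of all 4 younger mice for 191 genes (1.59%) and below them for 238 genes (1.99%). Gene lists are described below by counts at a raw p under 0.05, which are to be read against these shares, because no member of any list passed the adjusted threshold. Every adjusted p below is from limma.

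Both genes that passed are of uncertain identity. They also passed the filter through the 8-mo mice alone, which favoured a lower value at 12 mo. No conclusion is therefore drawn from their calls. Amd2 encodes an S-adenosylmethionine decarboxylase, an enzyme of polyamine synthesis. It was at 7.27, 18.4, 7.07 and 10.8 FPKM at 8 mo and 0.0552, 0.232, 0.1795 and 0.0103 FPKM at 12 mo (log2FC -3.32, SE 0.411, adjusted p = 0.014), without overlap of the ages. RefSeq (GRCm38.p6) has the Amd2 gene at chr10:35708691-35711891, but the files place its transcript on chromosome 10 (mm10) from 40287465 to 40302186, inside that of the near-identical Amd1, from 40287458 to 40302188. Amd1, which was not tested because its estimate failed in samples outside PAM, was at 16.8, 5.95, 29.1 and 15.1 FPKM at 8 mo and 29.2, 31.1, 24.7 and 27.7 FPKM at 12 mo. The sum of both genes was 27.6 ± 5.75 FPKM (SD, n = 4) at 8 mo and 28.3 ± 2.71 FPKM at 12 mo, so that the joint level of the pair differed by less than the spread between mice. The Amd2 call was lost in 3 of 8 other settings, and without mouse 1190, 1033 or 1107 (adjusted p = 0.074, 0.059 and 0.055), with adjusted p from 0.0086 to 0.18 over all of them.

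Mir1892 is a microRNA gene of 80 bases on chromosome 12 (mm10) from 54645933 to 54646012, inside Sptssa, a subunit gene of serine palmitoyltransferase. It was at 202, 227, 326 and 148 FPKM at 8 mo, while at 12 mo it was at 42.3 FPKM in mouse 1108 and at or under 0.00844 FPKM in the other mice (log2FC -6.41, SE 0.918, adjusted p = 0.036). Sptssa was at 91.5 ± 9.501 FPKM (SD, n = 4) at 8 mo and 74.3 ± 19.2 FPKM at 12 mo, with overlap. The call of Mir1892 was lost in 5 of 8 other settings. It was lost as well without any 1 of the mice 1089, 1088, 1129, 1190, 1032, 1033 and 1107 (adjusted p = 0.21, 0.2, 0.22, 0.11, 0.12, 0.21 and 0.2), and was held without mouse 1108 (adjusted p = 1.1e-08). Over all of these the adjusted p ranged up to 0.51. The feature is about as long as a read, so its FPKM is uncertain, and the number of fragments behind it is not known. On the scale of all 24 samples of 8 and 12 mo it ranged up to 70.9 FPKM in PCM at 8 mo, 66.5 FPKM in PCM at 12 mo, 28.8 FPKM in CM at 8 mo and 136 FPKM in CM at 12 mo, with values near 0 in each of these groups. The mature microRNA, from RefSeq (GRCm38.p6, chr12:54645943-54645964, minus strand), lies inside the feature and is shown with its seed, bases 2 to 8, in capitals. The FPKM are those of the 80-base feature and give no level of the mature RNA.
mmu-miR-1892: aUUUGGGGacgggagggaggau

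Interferon targets were among the genes with the lowest raw p that were higher at 12 mo. Usp18, a protease that removes the ubiquitin-like Isg15 from proteins and dampens the interferon receptor, was at 3.65, 2.45, 3.79 and 5.99 FPKM at 8 mo and 13.8, 16.6, 13.7 and 26.8 FPKM at 12 mo. Ifit1, which binds foreign RNA, was at 0.705, 2.21, 3.19 and 1.797 FPKM at 8 mo and 9.85, 8.09, 10.5 and 11.2 FPKM at 12 mo. In both genes every older mouse lay above every younger one, and so it was for their relative Ifit2, at 2.33, 4.24, 5.79 and 2.09 FPKM at 8 mo and 15.2, 8.75, 12.9 and 18.8 FPKM at 12 mo. The test gave log2FC 1.91, SE 0.347, adjusted p = 0.23 for Usp18. It gave log2FC 1.94, SE 0.386, adjusted p = 0.24 for Ifit1 and log2FC 1.72, SE 0.378, adjusted p = 0.31 for Ifit2. None of these passed the adjusted threshold, and mouse 1108 had the highest value of each.

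Other targets were higher by less. Isg15, the ubiquitin-like protein that is attached to other proteins after interferon, was at 5.28, 7.19, 20.4 and 16.5 FPKM at 8 mo and 21.1, 36.4, 21.6 and 41.8 FPKM at 12 mo (log2FC 1.34, adjusted p = 0.59), with the lowest older mouse, 21.1 FPKM, just above the highest younger one, 20.4 FPKM. Ifit3 was at 20.7, 21.4, 30.3 and 19.8 FPKM at 8 mo and 48.2, 31.98, 37.3 and 60.1 FPKM at 12 mo (log2FC 0.897, adjusted p = 0.49). Its near-identical copy Ifit3b shares most of its sequence, so the split of reads between both genes is uncertain. Oasl1, which blocks translation of Irf7, was listed at 0 in all 4 mice of 8 mo, and was at 0.0167, 2.82, 6.16 and 2.77 FPKM at 12 mo. Oasl2, an antiviral relative of the oligoadenylate synthetases, overlapped between the ages, at 4.58, 11.6, 9.49 and 4.37 FPKM at 8 mo and 4.91, 11.95, 12.2 and 31.9 FPKM at 12 mo (log2FC 0.77, adjusted p = 0.87). The log2FC of Oasl2 ranged from 0.34 to 1.16 with 1 mouse left out.

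Of 40 tested interferon targets, 6 were higher at 12 mo at a raw p under 0.05, none was lower and 34 did not reach it, with 6 of 40 above the younger mice without overlap. Both counts include Oasl1, which passed the filter through the 12-mo mice alone. This favoured a higher value at 12 mo, so no conclusion is drawn from Oasl1. The median log2FC of the targets was 0.39, against 0.0073 over all genes, and 32 of 40 had a positive log2FC. The summed FPKM of the 45 targets in the files showed less order, at 863, 1193, 1641 and 1075 FPKM at 8 mo and 789.8, 1412, 1349 and 2174 FPKM at 12 mo. Mouse 1032 was the lowest and mouse 1108 the highest of the older mice, and the ages overlapped widely. Mouse 1108 had the highest value of the 8 samples in 26 of the 40 targets, while it was highest in 9.18% of all genes. Without mouse 1108 the median was 0.15 and 5 targets were higher at a raw p under 0.05, and without mouse 1032, which had the lowest sum of microglia markers, the median was 0.54 and 12 were.

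**Figure D1:**
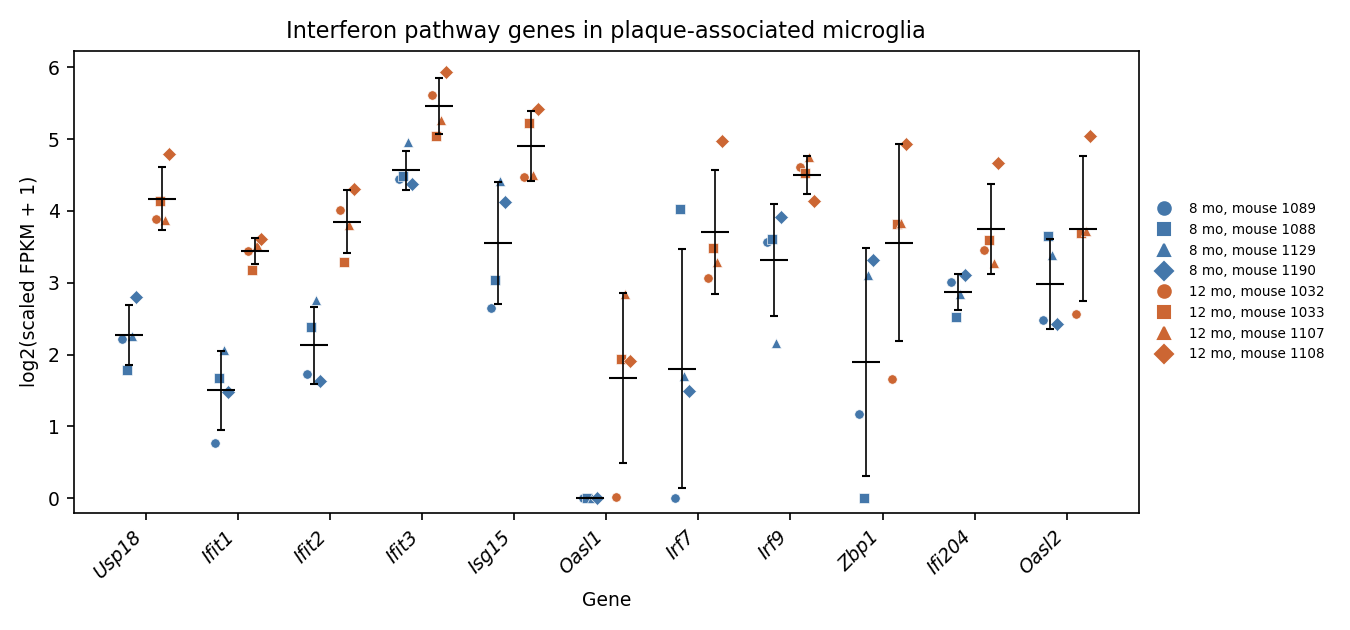
Level of interferon pathway genes in each PAM sample, as log2(scaled FPKM + 1), with 8-mo mice in blue and 12-mo mice in orange, symbols for mice, and black bars for the mean and SD of 4 mice. The 12-mo mice lie above all 8-mo mice for Usp18, Ifit1, Ifit2, Ifit3, Isg15, Irf9 and Ifi204, whereas Oasl2, Irf7 and Zbp1 overlap and Oasl1 is near 0 in mouse 1032.

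The rest of the pathway was mixed. None of the 5 interferon genes listed, Ifna1, Ifna2, Ifna4, Ifnb1 and Ifng, was detected in any PAM sample. None of the 4 receptor chains and 3 kinases that were tested reached a raw p of 0.05. Among 7 transcription factors, Irf9, a DNA-binding factor of the interferon signal, was at 10.9, 11.3, 3.48 and 14.1 FPKM at 8 mo and 23.4, 21.99, 25.9 and 16.6 FPKM at 12 mo, without overlap (log2FC 1.19, adjusted p = 0.63). Irf7, which amplifies the production of type I interferon, was at 0, 15.3, 2.24 and 1.82 FPKM at 8 mo and 7.36, 10.1, 8.79 and 30.4 FPKM at 12 mo (log2FC 1.898, adjusted p = 0.72), and mouse 1088 of 8 mo lay among the older mice. Irf8, a factor that microglia need for their development, was lower at 12 mo, at 82.6, 95.2, 97.1 and 78.7 FPKM at 8 mo and 48.3, 69.9, 72.8 and 71.9 FPKM at 12 mo (log2FC -0.44, adjusted p = 0.74). Of 8 sensors, Zbp1, which binds Z-form nucleic acids, and Ifi204, a DNA-binding protein that interferon induces, were higher at a raw p under 0.05 (log2FC 1.66, adjusted p = 0.8 and log2FC 0.88, adjusted p = 0.74).

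In PCM, away from plaques, more genes of the same pathway were higher than lower at 12 mo. At a raw p under 0.05, 14 of 54 tested interferon pathway genes were higher there and 1 was lower, where 2.77% of all genes were higher and 2.09% lower, and the median log2FC was 0.45. The 54 include genes, such as Ifi204 and Zbp1, that passed the filter in PCM through the 12-mo mice alone. This favoured a higher value at 12 mo, and the count and the median carry that limit. In CM, 1 of 45 was higher and 3 were lower, against 4.71% and 4.26% of all genes, with a median of 0.037. The difference of the age changes was tested itself. Against CM, 9 of 62 genes had a higher age change in PAM at a raw p under 0.05 and 1 a lower one (over all genes 3.37% and 3.3%). Among the 9 were Ifit1, Ifit2, Ifit3, Oasl1, Oasl2 and Usp18, and the 1 was Ifi27l2a, an interferon-induced membrane protein. For Ifit1 the difference was 2.197 (SE 0.679, adjusted p = 0.73). Only 45 of the 62 genes passed the filter in CM, so the count of 9 includes genes that entered through PAM alone. Among these, Ifit1, Ifit2 and Oasl1 were too low in CM to be tested there, so their differences rest mainly on PAM. No difference between PAM and CM in the age change of the pathway is therefore read from this count. In CM, Oasl1 was at 0 in all 8 samples, and Ifit1 and Ifit2 were each under 1 FPKM in 2 of 4 mice at either age. Against PCM, no gene had a higher age change and 2, Irf8 and Bst2, had a lower one (over all genes 2.84% and 3.29%). With the mouse as a block, none was higher and 4 were lower, the other 2 being Ifi27l2a and the secreted glycoprotein gene Lgals3bp (over all genes 3.34% and 4.41%). No interferon gene passed the adjusted threshold in either test.

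The levels behind these tests are given on the scale of the 24 samples. Usp18 was at 1.25, 2.73, 6.44 and 2.13 FPKM in PCM at 8 mo and 8.03, 5.09, 5.33 and 8.05 FPKM at 12 mo, and in CM it stayed at or under 2.06 FPKM at both ages. Ifit2 ranged from 0.105 to 2.42 FPKM in PCM at 8 mo and from 0.8803 to 5.797 FPKM at 12 mo. All 4 PAM samples of 12 mo were above every PCM and CM sample for Usp18 and Ifit2. This did not hold for Ifit1, Ifit3, Oasl1 and Oasl2, where PCM of mouse 1108 was above the lowest PAM sample of 12 mo, with 8.76 against 8.41 FPKM for Ifit1 and 41.7 against 33.3 FPKM for Ifit3. Bst2, the antiviral membrane protein tetherin, was higher at 12 mo in PCM. It was at 22.03, 18.7, 41.2 and 39.7 FPKM in PCM at 8 mo and 57.3, 56.4, 74.6 and 58.2 FPKM at 12 mo (log2FC 1.07), and in PAM at 86.4, 135, 139 and 152 FPKM at 8 mo and 68.6, 135, 132 and 239 FPKM at 12 mo, with overlap. The difference of its age changes was -0.997 (SE 0.431, adjusted p = 0.81). At a raw p under 0.05, 2 of 62 pathway genes had a lower age change than in PCM, near the 3.29% of all genes. No difference by plaque position is read from Bst2.

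Interferon targets are known to carry the interferon-stimulated response element in their promoters. Its core was searched as GAAANNGAAA on both strands in the 250 bases before the start of each gene in the RefSeq promoter table (GRCm38.p6). It was found in 16 of the 35 tested targets with a promoter there (45.7%), in none of 25 homeostatic and none of 44 actin genes, and in 3.46% of all 27025 genes in the table. Of the 10 pathway genes that were higher at a raw p under 0.05, 7 were matched and 3 held the motif, and the stretches are printed because these genes were higher together. A match is a description and does not show that the site was bound. In capitals are the matches, which overlap in Isg15 and are written as TTTCNNTTTC where they lie on the strand opposite to the gene. The stretches lie at chr19:34640765-34640833 on the plus strand for Ifit1, at chr19:34583353-34583436 on the plus strand for Ifit3 and at chr4:156200855-156200916 on the minus strand for Isg15, each upstream of the gene.
Ifit1: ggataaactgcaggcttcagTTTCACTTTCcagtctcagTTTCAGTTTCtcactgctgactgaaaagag
Ifit3: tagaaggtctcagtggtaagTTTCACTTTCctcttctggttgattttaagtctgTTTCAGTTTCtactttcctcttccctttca
Isg15: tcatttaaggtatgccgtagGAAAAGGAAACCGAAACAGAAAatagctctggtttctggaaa

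More homeostatic microglia genes were lower than higher at 12 mo. Tmem119, a membrane protein that marks microglia, was at 237, 373, 259 and 235 FPKM at 8 mo and 61.7, 145, 133 and 183 FPKM at 12 mo, without overlap (log2FC -1.15, SE 0.275, adjusted p = 0.38). P2ry12, the receptor for ADP that guides microglial processes, was at 314, 321, 319.8 and 251 FPKM at 8 mo and 156, 254, 259 and 230.1 FPKM at 12 mo (log2FC -0.44, adjusted p = 0.74), and mouse 1190 of 8 mo lay among the older mice. Selplg, the ligand of P-selectin, was at 421, 502, 434 and 387 FPKM at 8 mo and 159.7, 239, 224 and 337 FPKM at 12 mo (log2FC -0.903, SE 0.198, adjusted p = 0.31). The secreted Olfml3 was at 512, 700.1, 649 and 551 FPKM at 8 mo and 230.2, 383, 382 and 369 FPKM at 12 mo (log2FC -0.84, SE 0.185, adjusted p = 0.31). In Selplg and Olfml3 every older mouse lay below every younger one. P2ry6, the UDP receptor that triggers uptake of debris, and the lectin Siglech were lower as well (log2FC -0.86, adjusted p = 0.7 and log2FC -0.55, adjusted p = 0.74).

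Of 34 tested homeostatic genes, 9 were lower at a raw p under 0.05 and none was higher, 5 were lower without overlap, and 31 had a negative log2FC, with a median of -0.39. The 10 microglia markers, some of which are on both lists, were all lower, 4 of them at a raw p under 0.05, with a median of -0.45. For Cx3cr1 and Csf1r the log2FC was -0.47 and -0.404, and both overlapped between the ages. With 1 mouse left out, Cx3cr1 ranged from -0.64 to -0.18 and Csf1r from -0.52 to -0.19. Mouse 1032 had the lowest value of the 8 samples in 29 of the 34 genes. Without it the median was -0.201 for the homeostatic list, with 7 genes lower at a raw p under 0.05, and -0.196 for the microglia markers, with 2 of 10. Without mouse 1107 there were 16 homeostatic genes and 7 microglia markers at that threshold, and without mouse 1108 there were 15 homeostatic genes. The part of the lower microglia marker sum at 12 mo in these counts was not tested.

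The median of the homeostatic list was below 0 outside the plaques too. Its median log2FC was -0.23 in PCM, where 2 of 35 genes were lower and 1, the protease inhibitor gene Serpine2, was higher at a raw p under 0.05 (2.09% and 2.77% of all genes). It was -0.31 in CM, where 6 of 34 were lower and none was higher (4.26% and 4.71% of all genes). The age change in PAM was lower than in PCM for 5 of 35 genes and lower than in CM for 3 of 35 at a raw p under 0.05 (3.29% and 3.3% of all genes), and higher for none. For Tmem119, which was -0.38 in PCM and -0.38 in CM, the difference was -0.77 (SE 0.381, adjusted p = 0.82) against PCM and -0.78 (SE 0.365, adjusted p = 0.73) against CM.

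Of the genes named for the lowest raw p among those lower at 12 mo, 3 more are given here. Ptgs1, the cyclooxygenase that microglia express at rest, was at 75.9, 113, 114 and 80.9 FPKM at 8 mo and 30.5, 46.2, 51.8 and 45.8 FPKM at 12 mo (log2FC -1.12, SE 0.21005, adjusted p = 0.23). Ltc4s, the synthase of cysteinyl leukotrienes, which is on the homeostatic list and counted there, was at 112, 86.7, 133 and 153 FPKM at 8 mo and 38.8, 70.03, 61.5 and 52.4 FPKM at 12 mo (log2FC -1.11, SE 0.218, adjusted p = 0.24). Alox5ap, which presents arachidonic acid to a lipoxygenase, was at 61.7, 75.7, 92.9 and 46.98 FPKM at 8 mo and 23.7, 26.9, 33.1 and 42.4 FPKM at 12 mo (log2FC -1.101, SE 0.2404, adjusted p = 0.31). The ages did not overlap in any of the 3 genes, and mouse 1032 had the lowest value of each. The age change of Ptgs1 was -0.33 in PCM and -0.46 in CM, that of Ltc4s -0.34 and -0.096, and that of Alox5ap -0.71 and -0.051.

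Of 52 tested genes of the actin cytoskeleton, which shapes microglial processes and drives their movement, 13 were lower at a raw p under 0.05 and none was higher, 8 were lower without overlap, 47 had a negative log2FC and the median was -0.31. Actb, the cytoplasmic actin, was at 1201, 981, 1112 and 918 FPKM at 8 mo and 660.1, 761, 819.5 and 677 FPKM at 12 mo (log2FC -0.53, SE 0.1503, adjusted p = 0.59). Pfn1, which loads actin monomers onto filaments, was at 402, 426, 616 and 447 FPKM at 8 mo and 313, 331, 392 and 274 FPKM at 12 mo (log2FC -0.52, adjusted p = 0.7). Capg, which caps filament ends in macrophages, was at 144, 149.6, 159 and 168 FPKM at 8 mo and 84.3, 120.5, 135 and 97.6 FPKM at 12 mo (log2FC -0.52, adjusted p = 0.7). These 3 genes showed no overlap. Actb is not restricted to microglia, and without mouse 1032 the median of the list was -0.27, with 9 genes lower at a raw p under 0.05. The part of the lower microglia markers at 12 mo (10 of 10 lower, median -0.45) in these counts was not tested.

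The GTPases of the list, switch proteins that steer actin, had the lowest median of the list, -0.51, with all 7 tested genes below 0 and 4 at a raw p under 0.05. Rhog, which acts upstream of Rac in engulfment, was at 106, 114, 142 and 122 FPKM at 8 mo and 63.6, 102, 97.2 and 73.7 FPKM at 12 mo (log2FC -0.54, adjusted p = 0.72). Rhoa, which drives contraction, was at 186, 174, 158 and 138 FPKM at 8 mo and 136, 128, 138 and 109 FPKM at 12 mo (log2FC -0.36, adjusted p = 0.79). Rhog did not overlap between the ages, while for Rhoa mouse 1190 and mouse 1107 were nearly equal, and which of them was higher depended on the scaling. Rhob had a log2FC of -0.62 (adjusted p = 0.7) and the leukocyte form Rac2 of -0.57 (adjusted p = 0.74), while Rac1 was at -0.29 (adjusted p = 0.82). The actin list had a median of 0.012 in PCM, with 3 of 50 genes higher and none lower, and of -0.098 in CM, with 4 of 49 lower and none higher. Over all genes, 2.77% were higher in PCM and 4.26% lower in CM. Tested directly, the age change in PAM was lower than in PCM for 11 of 52 genes and lower than in CM for 5 of 52 at a raw p under 0.05 (3.29% and 3.3% of all genes), and higher for none. The lowest difference among these genes was that of Capg against PCM, -1.79 (SE 0.5503, adjusted p = 0.74).

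**Figure D2:**
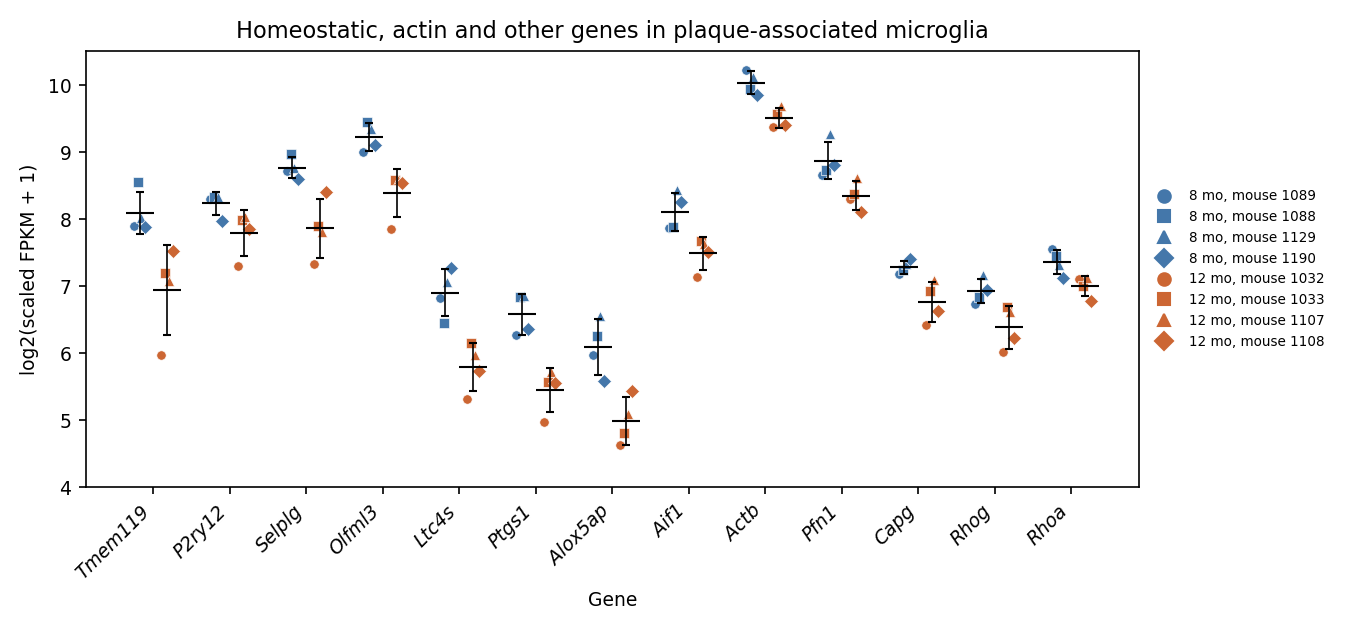
Level of homeostatic, actin and other genes in each PAM sample, as log2(scaled FPKM + 1), with 8-mo mice in blue and 12-mo mice in orange, symbols for mice, and black bars for the mean and SD of 4 mice; the axis starts at 4. All 12-mo mice lie below all 8-mo mice except for P2ry12 and, with mouse 1190 and mouse 1107 nearly equal, Rhoa, and mouse 1032 is lowest for most of the genes.

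All 32 plaque-response genes that were tested overlapped between the ages. Over all genes, 1.59% were higher and 1.99% lower without overlap, so none of 32 was near these shares. The most abundant were Ctsd, a lysosomal protease, at 8209, 8228, 8642 and 11497 FPKM at 8 mo and 3838, 7831, 9822 and 10800.3 FPKM at 12 mo, and the lipid carrier Apoe. Apoe was at 4322, 4262, 4551 and 5289.99 FPKM at 8 mo and 4488, 4645, 5343 and 6988 FPKM at 12 mo. The receptor gene Trem2 was at 925, 1116, 1183 and 1647 FPKM at 8 mo and 513, 1056, 1423 and 1189.8 FPKM at 12 mo. The ages overlapped in these genes, and so they did in the protease inhibitor gene Cst7, at 723, 817, 1065 and 1297 FPKM at 8 mo and 387, 953, 1381 and 1647 FPKM at 12 mo. Mouse 1032 was the lowest of all samples for Ctsd, Trem2 and Cst7. Of 32 tested genes of the list, 1 was higher and 3 were lower at a raw p under 0.05 (2.88% and 3.19% of all genes). The median log2FC was -0.17, or 0.04 without mouse 1032.

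The 1 higher gene was Gpnmb, a glycoprotein of lipid-laden phagocytes, at 13.04, 23.9, 27.9 and 24.7 FPKM at 8 mo and 20.5, 38.2, 172 and 70.2 FPKM at 12 mo (log2FC 1.33, SE 0.477, adjusted p = 0.72), and mouse 1107 was far above the others while mouse 1032 lay among the younger mice. Spp1, the secreted osteopontin, spread widely at both ages, at 57.4, 289, 429.6 and 61.8 FPKM at 8 mo and 169, 191, 761 and 631 FPKM at 12 mo (log2FC 1.28, adjusted p = 0.82). The lower genes were the chemokine Ccl6, at 419, 770.3, 736 and 697 FPKM at 8 mo and 266, 439.6, 414 and 297 FPKM at 12 mo (log2FC -0.88, adjusted p = 0.45), and 2 membrane proteins. Cd52, a short glycoprotein, was at 848, 730.2, 1067 and 1195 FPKM at 8 mo and 389, 621, 773 and 661 FPKM at 12 mo (log2FC -0.67, adjusted p = 0.7), and the tetraspanin Cd9 had a log2FC of -0.43 (adjusted p = 0.75). All 3 overlapped between the ages.

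In PCM, 12 of 32 plaque-response genes were higher at 12 mo at a raw p under 0.05 and none was lower (2.77% and 2.09% of all genes), with a median log2FC of 0.67. In CM, none of 21 was higher and 2 were lower (4.71% and 4.26% of all genes), with a median of -0.022. The age change in PAM was lower than in PCM for 12 of 32 genes at a raw p under 0.05 and higher for none, or lower for 15 and higher for none with the mouse as a block. Over all genes, 3.29% were lower without the block and 4.41% with it. Against CM, the age change in PAM was higher for 2 of 32 and lower for 3 (3.37% and 3.3% of all genes). Of these 32 genes, 21 passed the filter in CM, so no difference between PAM and CM is read from these counts. Clec7a, a receptor for fungal glucans that microglia gain at plaques, was at 6.84, 5.03, 25.4 and 17.1 FPKM in PCM at 8 mo and 43.05, 31.2, 49.1 and 22.8 FPKM at 12 mo on the scale of the 24 samples. On the same scale it was at 147, 169, 171 and 199 FPKM at 8 mo and 103, 153, 200.4 and 150.4 FPKM at 12 mo in PAM. The difference of its age changes was -1.76 (SE 0.502, adjusted p = 0.69), or an adjusted p of 0.54 with the mouse as a block. For Ccl6 the difference was -1.79 (SE 0.629, adjusted p = 0.81) and for Cd52 -1.35 (SE 0.447, adjusted p = 0.77). At 12 mo, the highest PCM value of Clec7a, 49.1 FPKM, was below the lowest PAM value.

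**Figure D3:**
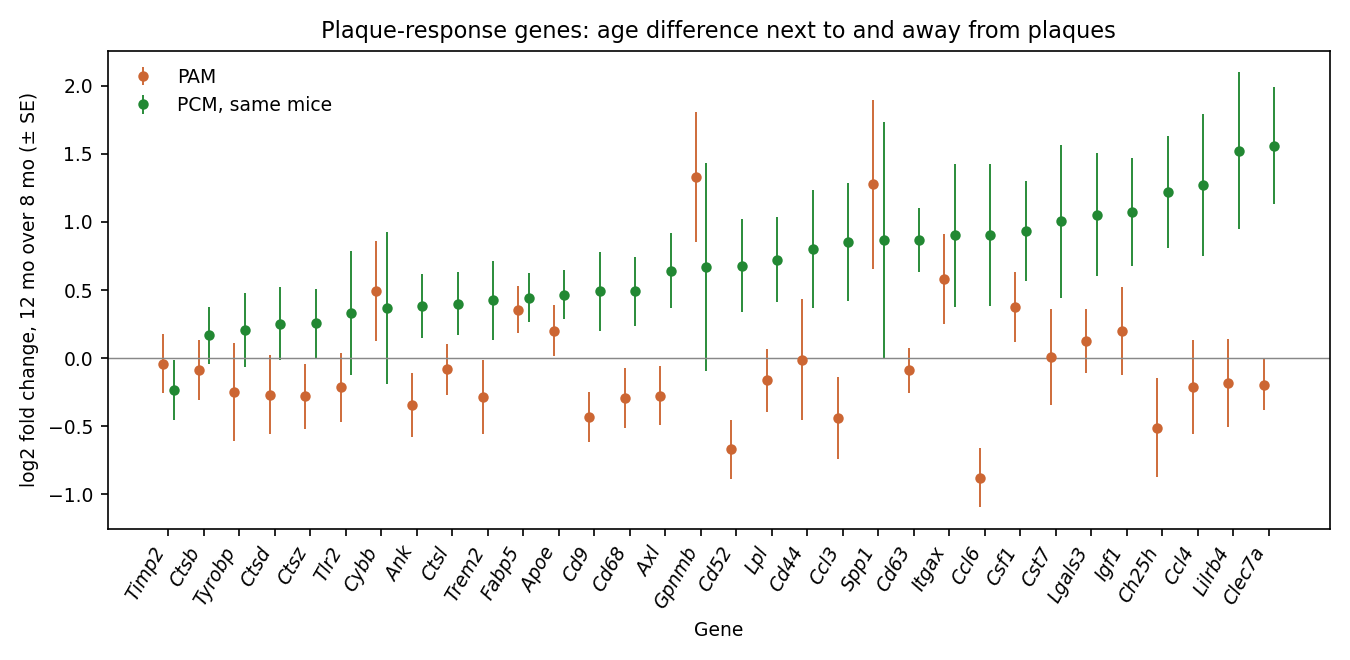
Age difference of the 32 plaque-response genes as log2FC of 12 over 8 mo, with its SE, in PAM (orange) and in PCM of the same mice (green), ordered by PCM. The PCM value is above 0 for 31 genes and above the PAM value for 28, and the PAM value is above 0 for 10.

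Over all genes, the age change differed between PAM and PCM at an adjusted p under 0.05 for 1 of 12586 genes, Gfap, the intermediate filament gene of astrocytes. In PCM, Gfap was at 66.5, 31.3, 52.03 and 40.5 FPKM at 8 mo and 232, 289.7, 197 and 269.6 FPKM at 12 mo on the scale of the 24 samples, and it rose with age (log2FC 2.39, SE 0.224, adjusted p = 0.0019, limma). On that scale it was at 1015, 468, 788 and 406 FPKM at 8 mo and 685, 771, 669.98 and 548 FPKM at 12 mo in PAM, with the older mice inside the range of the younger ones, and in CM it did not exceed 31.6 FPKM. The difference of the age changes was -2.299 (SE 0.361, adjusted p = 0.048), and the adjusted p was 5.6e-04 with the mouse as a block. Without the block the call was lost in 5 of 8 other settings, and without any 1 of the mice 1089, 1129, 1032, 1033, 1107 and 1108 (adjusted p = 0.091, 0.2, 0.12, 0.094, 0.16 and 0.18). At a raw p under 0.05, 358 genes had a higher and 414 a lower age change in PAM than in PCM, or 421 and 555 with the mouse as a block. The share of higher ones among them was 46.4%, but 62.1% without scaling between samples. Against CM, no gene of 12618 passed the adjusted threshold (limma), with 425 higher and 417 lower at a raw p under 0.05, and the share of higher ones was 50.5%, or 63.4% without scaling.

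Of 13 astrocyte markers, 3 were higher at 12 mo in PCM at a raw p under 0.05 and none was lower (2.77% and 2.09% of all genes), with a median log2FC of 0.22. The 3 were Gfap, Serpina3n and Aldh1l1. In CM none was higher and 3 were lower (4.71% and 4.26% of all genes), with a median of -0.21, and in PAM none of the 13 reached a raw p of 0.05 (limma). The age change in PAM was lower than in PCM for 3 of 13 (3.29% of all genes) and higher than in CM for 1 (3.37% of all genes). The log2FC of the protease inhibitor gene Serpina3n was 1.03 in PCM, and that of the folate enzyme gene Aldh1l1 was 0.77. In PAM, Aldh1l1 was at 33.6, 49.8, 43.7 and 21.8 FPKM at 8 mo and 27.7, 22.8, 29.4 and 25.4 FPKM at 12 mo, with overlap. The difference of the age changes of Aldh1l1 was -1.21 (SE 0.394, adjusted p = 0.75). The part of astrocyte RNA in the captures in these differences was not tested.

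Genes that present antigen mostly overlapped between the ages. Of 21 tested, 1 was higher and 1 lower at a raw p under 0.05, and the median log2FC was -0.077, or 0.019 without mouse 1190. The invariant chain Cd74 was at 55.4, 108, 161 and 257 FPKM at 8 mo and 83.3, 81.5, 159 and 199 FPKM at 12 mo. The class II gene H2-Ab1 was at 42.3, 39.8, 63.5 and 107 FPKM at 8 mo and 41.8, 43.6, 49.02 and 59.1 FPKM at 12 mo. B2m, the light chain of class I, was at 2887, 2769, 4307 and 4343 FPKM at 8 mo and 1834, 3125, 3610.4 and 3837 FPKM at 12 mo. The ages overlapped in all 3 genes, and mice of the same age differed by more than the ages did. H2-DMa, which loads peptides onto class II, was at 87.6, 90.2, 85.5 and 106 FPKM at 8 mo and 35.8, 71.4, 57.8 and 67.6 FPKM at 12 mo, lower without overlap (log2FC -0.701, adjusted p = 0.63). Cd274, a ligand that inhibits T cells, was at 0.844, 0.583, 2.56 and 4.41 FPKM at 8 mo and 4.27, 5.33, 8.73 and 7.997 FPKM at 12 mo (log2FC 1.43, adjusted p = 0.7), with overlap. Cd274 passed the filter through the 12-mo mice alone, which favoured a higher value at 12 mo, so no conclusion is drawn from it.

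Cytokine and phagocytosis genes were more often lower than higher at 12 mo. Of 28 cytokine, chemokine and receptor genes, 7 were lower at a raw p under 0.05 and none was higher, with a median of -0.25, or 0.016 without mouse 1032. In PCM, 4 of 22 were higher and 1 was lower (2.77% and 2.09% of all genes), with a median of 0.15. In CM, none of 19 was higher and 6 were lower (4.71% and 4.26% of all genes), with a median of -0.35. Tnfrsf1a, the main receptor of tumour necrosis factor, was at 43.8, 49.3, 52.5 and 51.1 FPKM at 8 mo and 25.3, 32.6, 35.3 and 35.3 FPKM at 12 mo (log2FC -0.61, adjusted p = 0.68). Tgfb1, the growth factor that maintains the homeostatic state, was at 31.2, 43.4, 42.1 and 31.8 FPKM at 8 mo and 12.1, 30.5, 24.6 and 25.6 FPKM at 12 mo (log2FC -0.71, adjusted p = 0.73). Neither overlapped between the ages. The interleukin gene Il6 was low, at 1.72, 3.51, 3.74 and 1.18 FPKM at 8 mo and 0, 0, 0.0402 and 0.542 FPKM at 12 mo, but without overlap (log2FC -1.58, adjusted p = 0.49). Il6 passed the filter through the 8-mo mice alone, which favoured a lower value at 12 mo, so no conclusion is drawn from it. Il1b, another interleukin, overlapped, at 2.32, 2.397, 0 and 3.11 FPKM at 8 mo and 6.64, 12.2, 1.2005 and 1.02 FPKM at 12 mo. The chemokine gene Ccl3 was at 152, 219.9, 273 and 416 FPKM at 8 mo and 114, 201, 300.4 and 163 FPKM at 12 mo. Its relative Ccl4 was at 158, 261, 107 and 272 FPKM at 8 mo and 124, 247, 247 and 87.8 FPKM at 12 mo, and both overlapped between the ages.

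Of 31 phagocytosis and complement genes, 4 were lower and none was higher at a raw p under 0.05, with a median of -0.29, or -0.064 without mouse 1032. In PCM, 2 of 31 were higher and none was lower (2.77% and 2.09% of all genes), with a median of 0.055. In CM, none of 30 was higher and 5 were lower (4.71% and 4.26% of all genes), with a median of -0.23. C5ar1, the receptor of the complement anaphylatoxin, was at 25.3, 41.6, 32.7 and 16.4 FPKM at 8 mo and 6.65, 12.2, 14.7 and 20.2 FPKM at 12 mo (log2FC -1.07, adjusted p = 0.7). Pros1, a bridge between dying cells and their receptors, was at 60.2, 41.3, 59.1 and 45.6 FPKM at 8 mo and 19.6, 31.02, 33.3 and 39.7 FPKM at 12 mo (log2FC -0.74, adjusted p = 0.7). The ages overlapped through mouse 1190 and mouse 1108 for C5ar1 and not for Pros1. Of 47 lysosome genes, 4 were lower, none was higher and 42 had a negative log2FC, with a median of -0.18, or -0.042 without mouse 1032, which had the lowest value of 30 of the 47 genes. Tpp1, a lysosomal peptidase, was at 96.9, 95.1, 128 and 96.8 FPKM at 8 mo and 65.2, 84.5, 60.3 and 74.8 FPKM at 12 mo, lower without overlap (log2FC -0.54, adjusted p = 0.7).

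Housekeeping lists had medians near 0 in PAM. The median log2FC was -0.041 over 73 ribosomal protein genes, -0.012 over 36 genes of oxidative phosphorylation and -0.016 over 25 genes of glycolysis and hypoxia, and each of these was above 0 under quantile normalization. At a raw p under 0.05 were 0 genes of the ribosomal list (limma), 1 lower gene of oxidative phosphorylation, the complex III subunit gene Uqcrc1, and 2 higher genes of glycolysis and hypoxia. Mouse 1108 had the lowest value of the 8 samples in 57 of the 73 ribosomal genes, and without it their median was 0.11. The ribosomal median was 0.36 in PCM, with 2 of 73 genes higher, and 0.27 in CM, with 19 higher (2.77% and 4.71% of all genes), and none was lower. The age change in PAM was lower than in PCM for none of the 73, or for 13 with the mouse as a block (3.29% and 4.41% of all genes), and lower than in CM for 4 (3.3%). The median difference was -0.42 against PCM, beyond the -0.36 of the actin list, and -0.34 against CM. In oxidative phosphorylation the median was 0.18 in PCM and 0.21 in CM, with 7 of 36 genes higher in CM. The 2 higher genes of glycolysis and hypoxia were the growth factor gene Vegfa, at 9.83, 3.11, 2.67 and 0.974 FPKM at 8 mo and 5.46, 8.72, 11.9 and 9.56 FPKM at 12 mo (log2FC 1.18, adjusted p = 0.74), and the glucose transporter gene Slc2a1. Slc2a1 was at 36.2, 48.6, 39.6 and 29.6 FPKM at 8 mo and 71.3, 53.4, 50.5 and 45.8 FPKM at 12 mo (log2FC 0.51, adjusted p = 0.74), and both genes overlapped between the ages. None of 17 chaperone and unfolded protein genes and none of 31 genes of cholesterol and lipid handling reached a raw p of 0.05 (limma). Of 16 immediate early genes, which neurons and microglia switch on within minutes of stimulation, Fos and Ier3 were higher at that threshold (log2FC 0.96, adjusted p = 0.74 and log2FC 0.64, adjusted p = 0.74).

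None of 15 genes of amyloid precursor processing reached a raw p of 0.05 (limma), with a median of -0.19, or -0.21 to -0.091 with 1 mouse left out. App itself was at 564, 447, 499 and 519 FPKM at 8 mo and 384, 541, 551 and 685 FPKM at 12 mo, with overlap. Of 16 genes of TGF-beta signalling, only the ligand Tgfb1 reached a raw p of 0.05. Of 17 cell cycle genes, 2 were lower at a raw p under 0.05 and none was higher, with a median of -0.49. This median was not stable. It ranged from -0.62 to -0.0085 in other settings and from -0.48 to -0.16 with 1 mouse left out. The mitotic kinase gene Aurkb was at 1.83, 1.58, 5.44 and 0 FPKM at 8 mo and 0, 0.0916, 0 and 0 FPKM at 12 mo. Rrm2, a subunit gene of ribonucleotide reductase, was at 9.56, 2.75, 0.619 and 1.93 FPKM at 8 mo and 0, 0, 1.56 and 1.02 FPKM at 12 mo, and both overlapped between the ages. Aurkb and Rrm2 passed the filter through the 8-mo mice alone, which favoured a lower value at 12 mo, so no conclusion is drawn from them. Among markers of other cell types, 1 of 14 oligodendrocyte markers (the tight junction gene Cldn11, log2FC 0.85, adjusted p = 0.79) and 1 of 8 vessel markers (the adhesion protein gene Vtn, log2FC -0.94, adjusted p = 0.78) reached a raw p of 0.05. Of 2 tested monocyte markers, the calcium-binding S100a4 was at 17.4, 13.9, 3.63 and 15.5 FPKM at 8 mo and 0, 10.3, 0.717 and 4.83 FPKM at 12 mo (log2FC -1.88, adjusted p = 0.72) and Ly6c2 at 9.29, 11.8, 23.8 and 14.6 FPKM at 8 mo and 14.01, 11.1, 15.2 and 6.75 FPKM at 12 mo. Of these 2, 1 was lower at a raw p under 0.05. That gene, S100a4, passed the filter through the 8-mo mice alone, which favoured a lower value at 12 mo. No conclusion is drawn from S100a4. The summed monocyte markers ranged from 25.86 to 34.99 FPKM at 8 mo and from 11.8 to 21.5 FPKM at 12 mo, without overlap.

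**Figure D4:**
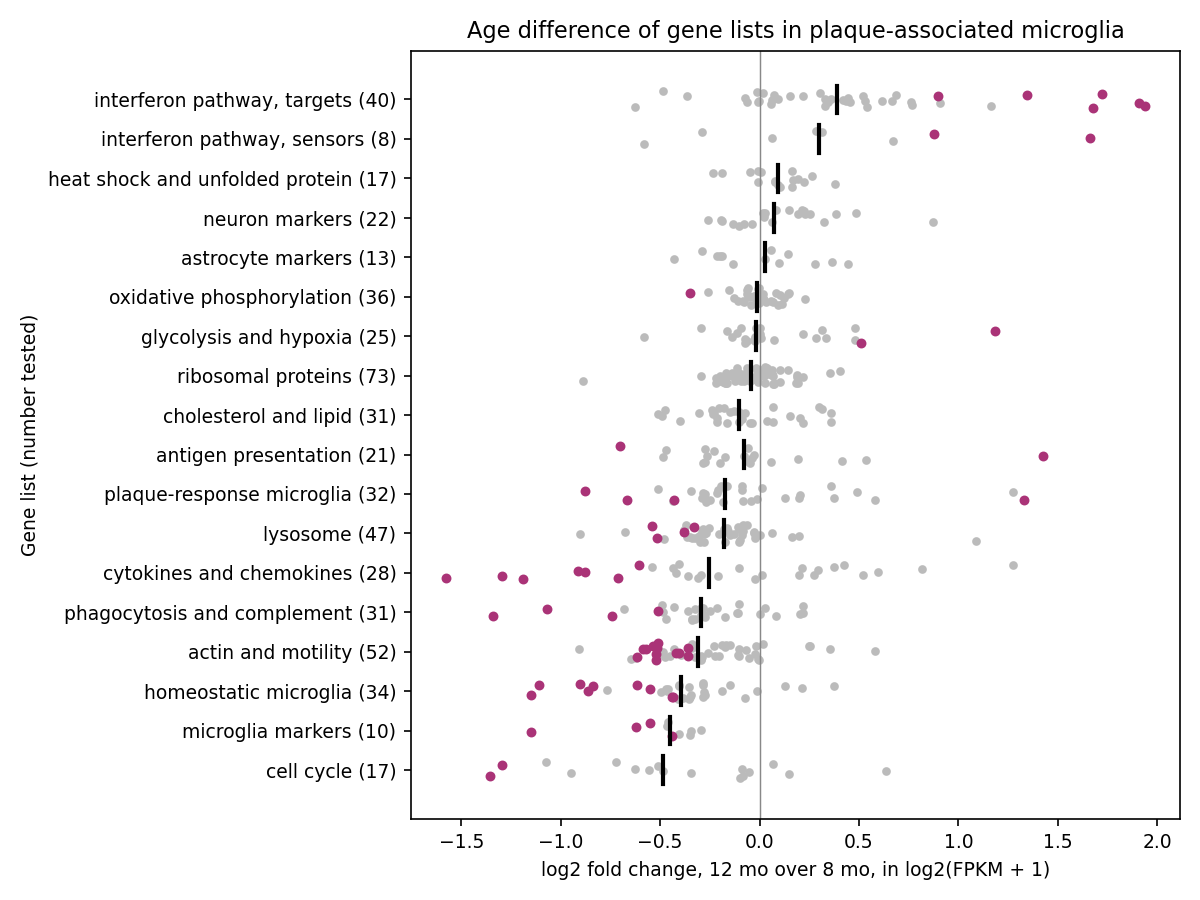
Age difference of gene lists in PAM. Each point is a tested gene with its log2FC of 12 over 8 mo on the log2(FPKM + 1) scale, purple where the raw p is under 0.05, and black bars are the medians, which in the lists shown range from -0.49 for the cell cycle to 0.39 for the interferon targets. The cell cycle median was not stable, and ranged from -0.62 to -0.0085 in other settings.

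Of the named genes outside the lists that were higher at 12 mo, Bc1, a short noncoding RNA that neurons carry into their dendrites, was at 52.1, 33.1, 99.5 and 103 FPKM at 8 mo and 259, 185, 135 and 164 FPKM at 12 mo (log2FC 1.46, SE 0.315, adjusted p = 0.31). St8sia4, which adds polysialic acid to the adhesion molecule NCAM, was at 0.0535, 0.314, 1.35 and 1.53 FPKM at 8 mo and 8.07, 7.704, 7.92 and 5.35 FPKM at 12 mo (log2FC 2.27, SE 0.4196, adjusted p = 0.23). Both were higher without overlap. For St8sia4 the age change in PAM was higher than in PCM by 2.89 (SE 0.601, adjusted p = 0.38), and in a single fit of all 32 samples the age difference within PAM, not this one, passed the adjusted threshold (adjusted p = 0.023). In PAM, St8sia4 passed the filter through the 12-mo mice alone, which favoured a higher value at 12 mo. No conclusion is drawn from its tests. Gnal, a G protein subunit of dopamine and odorant signalling, was at 8.72, 6.63, 6.83 and 5.41 FPKM at 8 mo and 15.3, 16.7, 12.5 and 20.3 FPKM at 12 mo (log2FC 1.12, adjusted p = 0.49).

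Of further genes that were higher, Lrrc17, a secreted leucine-rich repeat protein, was at 8.42, 6.35, 16.7 and 17.4 FPKM at 8 mo and 44.3, 35.6, 29.4 and 36.4 FPKM at 12 mo (log2FC 1.597, SE 0.307, adjusted p = 0.24). Mamdc2, a protein of the extracellular matrix, was at 5.86, 5.37, 4.04 and 12.4 FPKM at 8 mo and 27.5, 26.99, 25.9 and 15.6 FPKM at 12 mo (log2FC 1.73, SE 0.338, adjusted p = 0.24). Mamdc2 was also higher with age in PCM (log2FC 1.79, adjusted p = 0.89), and Lrrc17 had a log2FC of -0.091 there. Kctd10, an adaptor of a cullin ubiquitin ligase, was at 12.2, 8.28, 8.92 and 8.87 FPKM at 8 mo and 31.96, 25.8, 17.7 and 24.03 FPKM at 12 mo (log2FC 1.28, adjusted p = 0.28). Slc9a7, a sodium and proton exchanger of the Golgi, was at 2.03, 2.67, 0 and 0 FPKM at 8 mo and 6.56, 9.31, 10.7 and 4.23 FPKM at 12 mo (log2FC 2.19, adjusted p = 0.37). In all 4 genes the older mice lay above the younger ones. Slc9a7 passed the filter through the 12-mo mice alone, which favoured a higher value at 12 mo, so no conclusion is drawn from it. The kinase gene Cdk20 had a log2FC of 1.43 and Peg3os of 1.502. Peg3os runs antisense to the imprinted gene Peg3, and reads of the pair cannot be told apart, since the library kit does not mark strand.

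Outside the lists, 4 further named genes were lower without overlap. Kti12, a partner of the Elongator complex that modifies transfer RNAs, was at 23.7, 22.8, 17.7 and 14.2 FPKM at 8 mo and 7.77, 4.04, 6.56 and 7.1002 FPKM at 12 mo (log2FC -1.49, SE 0.302, adjusted p = 0.26). Tspan4, a tetraspanin of migrating cells, was at 65.3, 84.4, 88.9 and 88.4 FPKM at 8 mo and 38.2, 48.4, 53.2 and 45.4 FPKM at 12 mo (log2FC -0.81, SE 0.178, adjusted p = 0.31). The leukocyte gene Lst1 was at 54.7, 36.4, 83.8 and 37.6 FPKM at 8 mo and 10.3, 32.99, 16.2 and 16.3 FPKM at 12 mo (log2FC -1.47, SE 0.333, adjusted p = 0.35). Tspan4 had the opposite age difference in PCM, 0.75 (adjusted p = 0.89), and the difference of its age changes was -1.56 (SE 0.3799, adjusted p = 0.69). Snrnp40, a part of the spliceosome, was at 29.5, 36.9, 37.2 and 29.1 FPKM at 8 mo and 20.9, 14.9, 11.5 and 16.97 FPKM at 12 mo (log2FC -1.02, adjusted p = 0.35).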

How the data were processed

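RNA of laser-captured microglia was preamplified (SMART-Seq v4), made into Nextera XT libraries, which do not mark strand, and sequenced. The FPKM per RefSeq transcript were computed by the authors before they were deposited, with, per the labels, bcl2fastq 2.17.1.14, cutadapt 1.9.1, TopHat2 2.1.0 and Cufflinks 2.1.1 on mm10. The deposited coverage, the mean read depth per base from the same Cufflinks run, served only to estimate depth. Counts were not used here, and so neither was the count model of the study.

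The FPKM of 31002 transcripts were summed to 23367 gene names. Transcripts without a name (503) and 22 genes with a failed estimate in any of 32 samples were left out, and 341 transcripts listed as low data were kept. The reads behind a low FPKM are not known, so low values were taken as imprecise. Samples were scaled by the median of ratios (RLE). Genes that reached 1 FPKM in 3 or more of the 4 mice of either age were tested with limma 3.58.1 (R 4.3.3) on log2(FPKM + 1), with a trended prior and Benjamini-Hochberg adjustment, in the 8 PAM samples. Amd2, Mir1892, Oasl1, St8sia4, Slc9a7, Cd274, Il6, S100a4, Aurkb and Rrm2 passed this filter at 1 age only, and were tested through it. The difference of age changes was an interaction term over 16 samples. Tables were made with python 3.11.15, pandas 2.3.3, numpy 2.4.6 and scipy 1.17.1, and the tests were run on simulated data too.

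PAM and PCM of the same number come from the same mouse, per the labels. The correlation of their deviations from the group means ranged from 0.0045 to 0.16 over the 8 pairs, and a fit with the mouse as a block was an alternative. Other alternatives were no scaling, quantile normalization, a pseudocount of 0.1, no filter, a filter at 5 FPKM, the highest transcript of a gene alone, all 32 samples in 1 fit, sample quality weights and leaving out each PAM mouse.

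Members and gene lists were chosen with earlier results of these data known. Named genes were up to 12 per direction by size among those that passed, filled up by lowest raw p among genes without overlap at a mean of at least 5 FPKM, up to 4 per list by raw p, some markers and up to 3 per direction of each interaction. Irf8, Irf9, Zbp1, Ifi204, Oasl1, Bst2, Ifi27l2a, Lgals3bp, Serpine2, Klrb1c, Mcoln3, D630041G03Rik, P2ry6, Rac2, Xist, Sptssa and Amd1 were named after their values were seen, and the lists' other genes to give counts or levels.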

Additional observations from a re-analysis of the deposited data

Results flagged for a closer look

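In 14 of 142 groups of 4 mice looked at, 1 mouse lay far from the other 3, where chance gives about 1 in 20. At 12 mo mouse 1108 was far above the other mice of its age for Irf7 (30.4 FPKM against 7.36 to 10.1 FPKM), Ifi204 (24.4 FPKM against 8.65 to 11.1 FPKM), Mir1892 (42.3 FPKM against 0.000747 to 0.00844 FPKM) and Il6 (0.542 FPKM against 0 to 0.0402 FPKM). It was far below them for Mamdc2 (15.6 FPKM against 25.9 to 27.5 FPKM) and St8sia4 (5.35 FPKM against 7.704 to 8.07 FPKM). Mouse 1032 was far below the others of 12 mo for Irf8 (48.3 FPKM against 69.9 to 72.8 FPKM) and Olfml3 (230.2 FPKM against 369 to 383 FPKM).

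At 8 mo, mouse 1088 was far above the others for Irf7 (15.3 FPKM against 0 to 2.24 FPKM), mouse 1129 for Ifit3 (30.3 FPKM against 19.8 to 21.4 FPKM) and Tpp1 (128 FPKM against 95.1 to 96.9 FPKM), mouse 1190 for Ier3 (13.3 FPKM against 8.74 to 9.29 FPKM) and mouse 1089 for Kctd10 (12.2 FPKM against 8.28 to 8.92 FPKM). Mouse 1190 was far below them for P2ry12 (251 FPKM against 314 to 321 FPKM).

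The age difference of Gfap differed between PAM and PCM by a test of the difference itself (log2FC difference -2.299, SE 0.361, adjusted p = 0.048, limma), or an adjusted p of 5.6e-04 with the mouse as a block.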

How the results depend on the processing

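The number of genes past the adjusted threshold in PAM was 2, and it was 0 with a pseudocount of 0.1 and 1 without a filter, with the highest transcript alone or with sample quality weights. It was 3 with all 32 samples in 1 fit (Klrb1c, Mcoln3 and St8sia4, without Amd2 and Mir1892), and the 1 gene without a filter was D630041G03Rik. It ranged from 0 to 2 with 1 mouse left out. The number of genes that were higher at a raw p under 0.05 was 345 at first, 195 with the filter at 5 FPKM, which tests fewer genes, and 571 with all 32 samples in 1 fit. For the age change in PAM against PCM, no gene passed without scaling, under quantile normalization, with a pseudocount of 0.1, without a filter or with all 32 samples in 1 fit (0 each, limma), and with 1 mouse left out 0 to 1 passed. The value of Gfap under these settings was -2.21, -2.25, -2.32, -2.299 and -2.31, and it ranged from -2.504 to -2.07 with 1 mouse left out. With the filter at 5 FPKM, 203 genes had a higher age change than in PCM (358 at first) and 268 a higher one than in CM (425 at first). With the mouse as a block, 421 were higher and 555 lower than in PCM and 1 passed, as without the block, and Gfap was at -2.299. The cause of these shifts was not tested.

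With 1 mouse left out, the lower homeostatic genes numbered 7 to 16, the lower microglia markers 2 to 7 and the higher interferon targets 5 to 12. Of 1115 other values of the log2FC of 70 named genes, 1096 kept their direction and their side of the adjusted threshold, 18 lost a call, 1 gained it and none changed sign. All 18 losses were among the 32 values of Amd2 and Mir1892, the 2 of these genes with a call to lose, and the Gfap call, not counted here, was lost in 5 of 9 other settings and in 6 of 8 fits without 1 mouse. Of 432 other medians of 27 lists, 428 moved by less than the spread between mice. A median could change sign within that spread. With 1 mouse left out this was so for plaque-response genes (-0.33 to 0.04) and cytokines and chemokines (-0.41 to 0.016). The homeostatic median then ranged from -0.48 to -0.201 and that of interferon targets from 0.15 to 0.54.

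Most calls on lists rest on raw p. The captures held RNA of neighbouring cells, and mouse 1032 had the lowest sum of microglia markers. Low values were often 0 in 1 mouse and not in another. Features as short as Mir1892 or shared by near-identical copies were uncertain. FPKM do not give the reads behind a value. Age and animal set cannot be told apart.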
